A study of Mus musculus with 36 samples.

Results

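The methylation of 10 genes for transcription factors that direct blood lineages other than B cells was described in a mouse pre-B cell line: Gata2, Tal1 and Klf1 of the stem cell, erythroid and megakaryocyte side, Cebpa, Cebpb and Cebpe of the myeloid side, and Gata3, Tcf7, Bcl11b and Runx3 of the T cell side. The CpG clusters (runs of at least 20 listed cytosines at most 100 bp apart) described are those that overlap one of these genes or the 5000 bp on either side of it in GENCODE M21 on GRCm38. There were 33 such clusters of 18009 in all, holding 2369 of 1116417 listed positions, and each of the 10 genes had at least 1. Of the 33 clusters, 32 had positions with a value in all samples and entered the tests over 16734 such clusters.

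Reduced representation bisulfite sequencing, which reads methylation in CpG-rich fragments cut by MspI, was applied to 36 samples of B3, a mouse pre-B cell line. The Ikaros series was B3 transduced with a retroviral (MSCV) vector for haemagglutinin-tagged wild-type Ikaros fused to the hormone-binding domain of the oestrogen receptor (HA-Ikaros-ERt2), followed by an IRES and GFP, so that 4-hydroxy-tamoxifen (4-OHT) brings the fusion into the nucleus. The Control series was B3 carrying the control vector with ERt2 and no Ikaros. Each series was collected at 0, 2, 6, 12, 18 and 24 h with 3 replicates at each time. The labels give 0.5 µM 4-OHT for every sample of both series, whereas the methods of the study give no 4-OHT at 0 h. Those methods also say that the 0 h cells were obtained separately. A change from 0 h to a later time therefore cannot be fully told apart from a difference between collections. Each series is 1 transduced population of 1 line, so a difference between the series that is present at all times cannot be told apart from a difference between the populations that received the vectors. No source used here says that replicates were separately derived lines, so p-values measure the spread between these cultures and batches.

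A transcription factor gene of an alternative lineage often has a CpG island at its start, and such islands are as a rule unmethylated in most cell types whether or not the gene is expressed. Dense methylation over an island start is usually found together with lasting silence of the gene. GATA2, TAL1 and KLF1 act in stem cells and in the erythroid lineage, the C/EBP proteins drive granulocyte and macrophage genes, and GATA3, TCF-1 (the product of Tcf7), BCL11B and RUNX3 act in T cell commitment and T cell subsets. The study also measured mRNA in cells of the same cultures, but expression was not used here. The values below therefore describe the DNA alone.

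Levels are smoothed percentages of methylated reads per position, averaged over the positions of a cluster with a value in all 36 samples. The mean level over all listed positions with values lay between 38.5% and 40.7% in all 36 samples. The share of positions with no value had a median of 0.342% in Ikaros and 0.323% in Control samples and reached 11.6% in Control 0 h replicate 1. The share of values at exactly 0% or 100% was 36.2% ± 7.63 (SD, n = 18) in Ikaros and 27.9% ± 4.89 (SD, n = 18) in Control, and its highest value was 59.1% in Ikaros 24 h replicate 2. Calls of the members that are lost with both shares in the model are given as such below. The files hold no read counts, so the depth behind a level is unknown. As a check of the label, 1 of 12 B lineage markers, 1 of 9 T lineage markers, 1 of 6 erythroid markers and 0 of 7 myeloid markers had a cluster within 1000 bp of a start. The pre-B cell gene Vpreb1 stood at 0.337%, the T cell kinase gene Lck at 79.6% and the erythropoietin receptor gene Epor at 94.0%.

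Stretches from 7 of these genes are shown by sequence, 5′ to 3′ on the strand of the gene in GRCm38.p6, with a CG in capitals where the tables hold a value for it. The first group holds stretches that were methylated throughout: the 300 bases before the first start of Gata2 (chr6:88193591-88193890), the 300 bases before the start of Cebpb (chr2:167688615-167688914) and the last 300 bases of the cluster before the start of Cebpa (chr7:35118747-35119046).

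Gata2: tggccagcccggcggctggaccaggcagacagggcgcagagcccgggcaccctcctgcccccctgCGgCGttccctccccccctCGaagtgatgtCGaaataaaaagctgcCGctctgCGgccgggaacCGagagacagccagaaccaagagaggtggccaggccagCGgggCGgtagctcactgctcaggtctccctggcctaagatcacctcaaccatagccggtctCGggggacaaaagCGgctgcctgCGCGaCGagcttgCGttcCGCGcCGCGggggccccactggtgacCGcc

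Cebpb: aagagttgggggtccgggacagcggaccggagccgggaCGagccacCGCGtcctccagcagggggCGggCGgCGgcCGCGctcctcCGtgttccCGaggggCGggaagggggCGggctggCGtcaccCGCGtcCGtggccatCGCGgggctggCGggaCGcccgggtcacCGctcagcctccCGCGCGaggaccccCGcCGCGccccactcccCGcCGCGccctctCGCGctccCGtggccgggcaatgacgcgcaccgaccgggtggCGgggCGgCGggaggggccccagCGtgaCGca

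Cebpa: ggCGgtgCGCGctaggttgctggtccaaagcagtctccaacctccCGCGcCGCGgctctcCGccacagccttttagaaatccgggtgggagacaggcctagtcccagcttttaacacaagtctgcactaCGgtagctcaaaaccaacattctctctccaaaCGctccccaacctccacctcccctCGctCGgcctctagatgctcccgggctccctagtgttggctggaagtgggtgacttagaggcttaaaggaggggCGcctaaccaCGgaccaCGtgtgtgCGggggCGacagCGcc

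The Gata2 stretch stood at 97.9% ± 1.09 in Ikaros and 96.4% ± 3.30 in Control (SD, n = 18 each). The Cebpb stretch, with values at 38 of its 48 CG, stood at 98.0% ± 0.888 and 98.0% ± 0.553. The Cebpa stretch stood at 98.3% ± 1.22 and 98.0% ± 0.866. No annotated exon of GENCODE M21 or RefSeq lies in any of these 3 stretches.

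The second group was unmethylated. It holds the 278 bases before the proximal start of Runx3 (chr4:135152218-135152495), inside an intron of the longer transcript, and the first 300 bases of the low cluster in Tal1 (chr4:115063280-115063579), of which 297 are coding.

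Runx3: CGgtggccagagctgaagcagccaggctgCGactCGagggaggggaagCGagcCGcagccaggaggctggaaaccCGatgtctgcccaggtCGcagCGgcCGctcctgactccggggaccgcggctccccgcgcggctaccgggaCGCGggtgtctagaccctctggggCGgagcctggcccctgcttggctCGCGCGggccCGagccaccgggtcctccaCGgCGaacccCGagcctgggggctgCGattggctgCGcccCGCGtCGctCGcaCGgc

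Tal1: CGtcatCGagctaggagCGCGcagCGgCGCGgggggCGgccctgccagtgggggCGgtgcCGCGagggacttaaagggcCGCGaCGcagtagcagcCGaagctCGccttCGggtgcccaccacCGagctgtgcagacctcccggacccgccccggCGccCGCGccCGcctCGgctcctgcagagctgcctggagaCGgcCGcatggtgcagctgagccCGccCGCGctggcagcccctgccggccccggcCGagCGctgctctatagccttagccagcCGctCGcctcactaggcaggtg

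The Runx3 stretch held 34 CG in 278 bases and stood at 0.637% ± 0.829 in Ikaros and 0.809% ± 0.365 in Control. The Tal1 stretch held 37 CG and stood at 1.78% ± 0.997 and 1.73% ± 0.803. The number of CG overlapped between the groups, with 20, 26 and 48 in the methylated stretches of Cebpa, Gata2 and Cebpb.

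The third group holds the ends of the clusters where the series differed: the 300 bases before the farthest Tcf7 start of RefSeq (chr11:52283384-52283683), of which 101 lie in a noncoding exon of A630014C17Rik on the other strand, and the 300 bases at the high-coordinate end of a cluster in an intron of Gata3 (chr2:9883412-9883711).

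Tcf7: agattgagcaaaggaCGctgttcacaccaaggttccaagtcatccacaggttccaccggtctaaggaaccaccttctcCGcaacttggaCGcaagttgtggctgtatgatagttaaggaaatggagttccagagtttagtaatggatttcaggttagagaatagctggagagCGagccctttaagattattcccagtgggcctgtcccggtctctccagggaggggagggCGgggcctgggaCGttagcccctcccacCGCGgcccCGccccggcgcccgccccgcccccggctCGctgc

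Gata3: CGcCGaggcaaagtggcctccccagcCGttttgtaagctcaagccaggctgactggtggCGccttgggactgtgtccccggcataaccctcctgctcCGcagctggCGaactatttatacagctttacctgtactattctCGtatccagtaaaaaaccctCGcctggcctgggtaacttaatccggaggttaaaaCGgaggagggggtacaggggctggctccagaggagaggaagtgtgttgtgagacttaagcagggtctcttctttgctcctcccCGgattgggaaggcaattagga

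The Tcf7 stretch stood at 23.8% ± 5.43 in Ikaros and 19.3% ± 2.34 in Control, as a mean over a sharp edge. Between 501 and 600 bp before the GENCODE start the means were 78.4% in Ikaros and 71.3% in Control. Between 401 and 500 bp they were 4.80% and 2.65%. The windows with the largest difference between the series, from 201 to 400 bp, lay mostly outside this stretch. The Gata3 stretch stood at 81.3% ± 6.54 and 71.3% ± 3.65. The Ikaros core motif TGGGAA was found on either strand in 2 of the 7 stretches, those of Tcf7 and Gata3, and 25.6% of 32851 RefSeq promoters of 300 bases hold it. Of the 10 genes, 9 were matched to RefSeq promoters (Cebpe was not), and TGGGAA was present at the first start of Tal1 and at the distal start of Runx3. A match of 6 letters is a description of the sequence alone, and its place relative to the differing positions was not tested.

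Most of the clusters at these 10 genes were methylated. The mean over 36 samples was over 90% in 20 of the 33 clusters (60.6%), between 10% and 90% in 6 and under 10% in 7 (21.2%). Over all 16734 tested clusters the same classes held 40.2%, 11.1% and 48.6%. By position, 1634 of 2369 member positions (69%) had a mean over 90%, against 36.2% of all positions. The same comparison was made among like loci. Of clusters within 1000 bp of a start of a coding gene with at least 50% GC and an observed to expected CpG ratio of at least 0.6, 10 of 17 member clusters (58.8%) were over 90% against 31.8% of 12559, and 4 of 17 (23.5%) were under 10% against 59.9%. Of clusters with this CpG content farther from a start, 7 of 11 member clusters (63.6%) were over 90% against 70.2% of 2868. Under 10% were 2 of 11 (18.2%) against 15.3%. In this comparison the members' higher share over 90% was thus seen near starts alone. These shares are descriptions, since the genes were chosen as a set with earlier results of these data known. Clusters of 1 gene are also not independent.

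**Figure D1:**
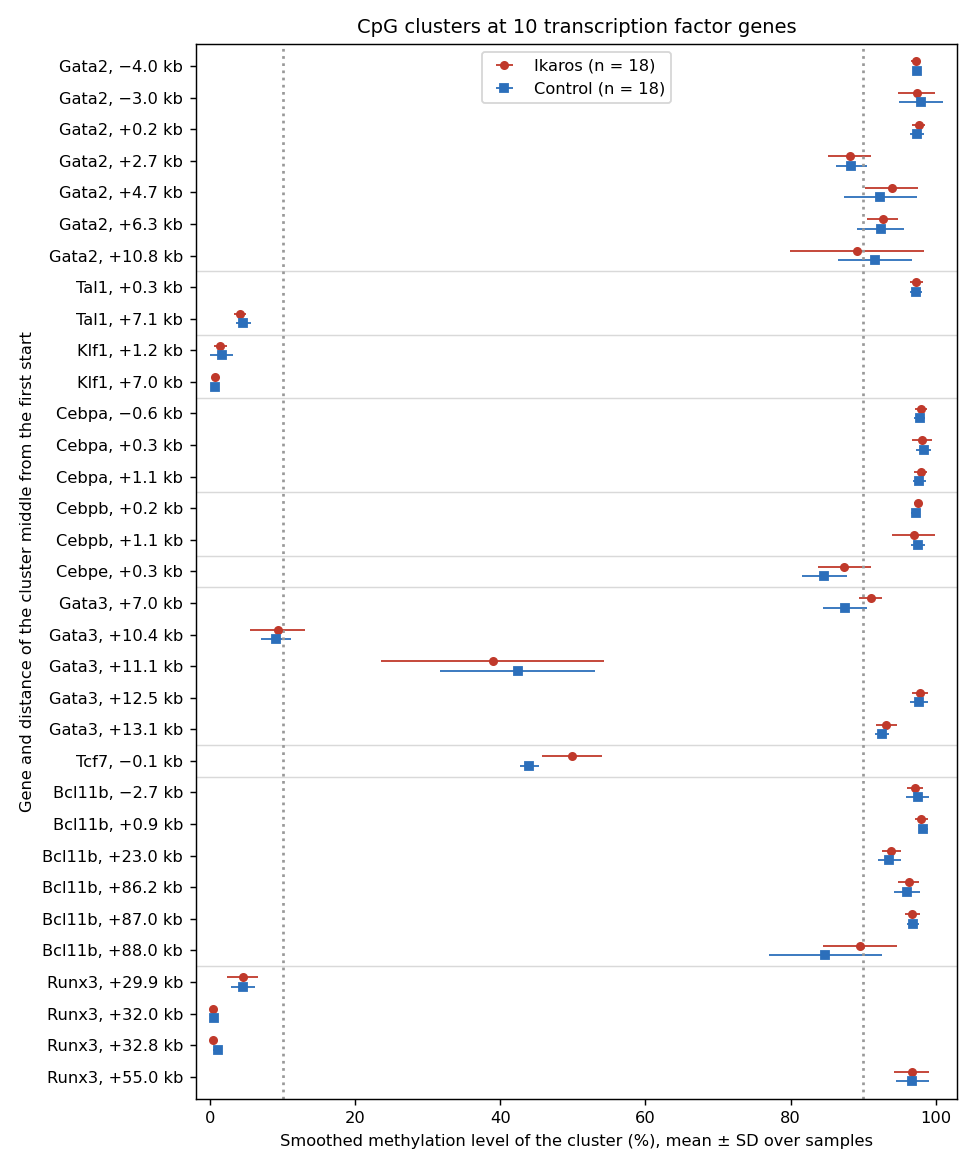
Smoothed methylation level (x axis, %) of each of the 33 clusters, by gene and distance of the cluster middle from the first start of the gene (y axis). Red circles are Ikaros and blue squares Control, as mean ± SD over 18 samples each, and dotted lines mark 10% and 90%. All clusters of Gata2, Cebpa, Cebpb, Cebpe and Bcl11b lie above 84%, both of Klf1 lie below 2%, and those of Gata3, Tal1 and Runx3 lie at both ends.

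CpG content overlapped between the classes. The observed to expected CpG ratio had a median of 0.811 (0.428 to 1.12) in the 20 clusters over 90% and 0.709 (0.565 to 0.986) in the 7 under 10%. GC content had medians of 67.6% and 64.3%. The clusters between the classes varied most among samples, with a median SD of 3.93 percentage points over 36 samples, against 1.21 in the methylated and 0.956 in the unmethylated clusters. Over the 32 tested clusters the median SD was 1.31 points, against 1.05 for all clusters.

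**Figure D2:**
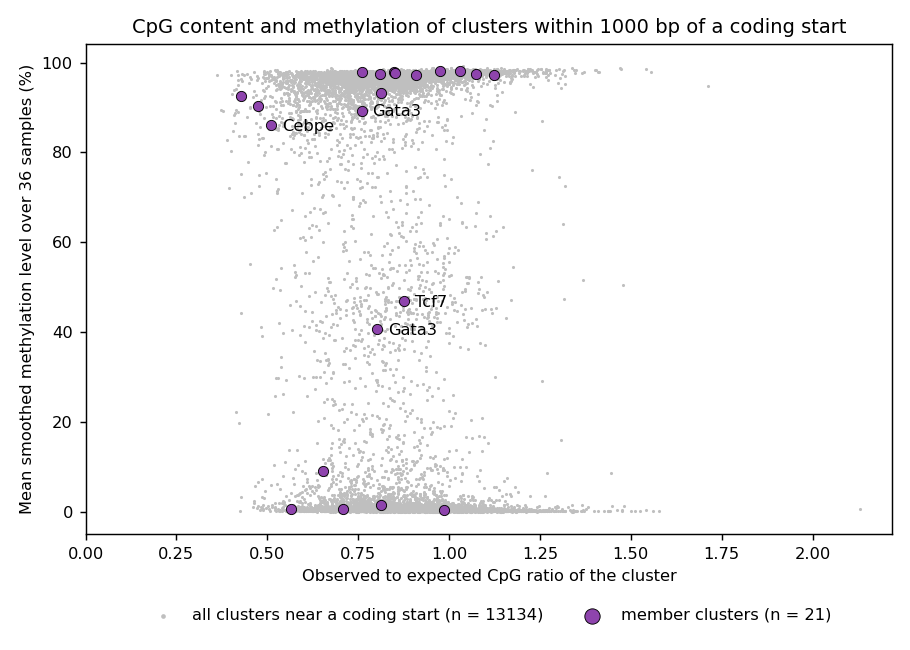
Observed to expected CpG ratio (x axis) and mean smoothed level over 36 samples (y axis, %) of the 13134 clusters within 1000 bp of a start of a coding gene (grey), with the 21 member clusters of that kind in purple. Member clusters with levels over 90% and under 10% occur at the same CpG ratios, and clusters of Tcf7, Gata3 and Cebpe have levels in between.

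Gata2, a factor of stem cells and early progenitors, was highly methylated in all 7 clusters. At its first start (chr6:88193524-88194587, covering the start and a UTR) the level was 97.7% ± 0.879 in Ikaros, with a lowest sample of 96.1%, a median of 97.6% and a highest of 99.5%, and 97.4% ± 0.999 in Control, with 94.6%, 97.5% and 98.6%. The groups overlapped and all 130 positions had means over 90%. A cluster 113 bp from another of its starts (chr6:88198447-88198771) stood at 94.0% ± 3.66 and 92.4% ± 5.05. The lowest cluster was in an intron (chr6:88196356-88196784) at 88.2% ± 2.95 and 88.4% ± 2.11. The highest lay upstream (chr6:88190676-88191013) at 97.4% ± 2.53 and 98.0% ± 3.05 over all its positions with a value, since none of its 31 positions had a value in every sample, and it was not tested. No Gata2 cluster passed any test.

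Tal1, which pairs with GATA factors in stem and erythroid cells, was methylated at its first start and unmethylated at a coding exon farther into the gene. The start cluster (chr4:115056301-115057175) stood at 97.3% ± 0.863 in Ikaros, from 94.8% over a median of 97.5% to 98.3%, and 97.3% ± 0.840 in Control, from 94.8% over 97.5% to 98.4%. A cluster in the coding exon (chr4:115063280-115063696), 3772 bp from the nearest start of Tal1, stood at 4.15% ± 0.815 in Ikaros (lowest 2.97%, median 4.22%, highest 5.87%) and 4.59% ± 1.06 in Control (2.99%, 4.71% and 7.95%). Its positions ran from 0.549% to 61.0% as means over samples. In windows of 100 bp the level stood at 0.455% and 0.945% in the first, 5.44% and 4.15% in the third and 51.9% and 63.8% in the fifth, which holds 2 positions, with the means of Ikaros first, so the low stretch ended inside the cluster. Both classes thus occurred in 1 gene, at observed to expected CpG ratios of 0.909 at the start and 0.825 in the coding exon.

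Klf1, a factor of erythroid genes including those for globins, was unmethylated in both clusters. The nearest to its start, 804 bp into the gene in a coding exon (chr8:84902732-84903553), stood at 1.37% ± 0.894 in Ikaros, from 0.124% over 1.14% to 3.32%, and 1.58% ± 1.58 in Control, from 0.0542% over 1.24% to 7.05%. The highest Control value came from Control 0 h replicate 1, the sample with most missing values, and the groups overlapped. The other cluster (chr8:84908555-84909306) lies past the gene at a start of Dnase2a and stood at 0.700% ± 0.396 and 0.599% ± 0.246. The start of Klf1 itself holds few CG, 3 in the 300 bases of its RefSeq promoter, and no cluster covers it.

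The C/EBP genes were highly methylated at every cluster, and Cebpe least. Cebpa, the factor that founds the granulocyte lineage, had 3 clusters between 97.8% and 98.3% in either series: the nearest to a start (chr7:35119426-35119722) stood at 98.1% ± 1.34 and 98.3% ± 1.01. Its lowest (chr7:35119832-35120900) stood at 97.9% ± 0.938 in Ikaros and 97.8% ± 0.944 in Control, and all 109 positions there were over 90%. Cebpb, which acts in macrophages and in emergency granulopoiesis, had the member cluster with most positions: 332 over the start and coding exon (chr2:167688436-167689730), of which 331 had means over 90%. That cluster stood at 97.6% ± 0.555 in Ikaros, from 96.6% over 97.7% to 98.3%, and 97.3% ± 0.632 in Control, from 95.9% over 97.4% to 98.0%. The second (chr2:167689896-167690169) stood at 97.0% ± 2.98 and 97.5% ± 0.981.

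Cebpe, needed for late granulocyte maturation, had 1 cluster 63 bp from its start (chr14:54711731-54712111) with fewer CpG, at a ratio of 0.511. The level was 87.4% ± 3.69 in Ikaros, from 80.3% over 87.6% to 93.8%, and 84.7% ± 3.06 in Control, from 80.2% over 84.1% to 89.7%. The groups overlapped, and Ikaros was higher in 12 of 18 pairs of the same time and replicate number. The series differed by 0.37 ± 0.14 (SE) on the M-value scale, the log2 ratio of methylated to unmethylated, with an unadjusted p of 0.0117 and an adjusted p of 0.144 in limma, so the difference did not pass the test. With clusters cut at gaps of 50 bp, the part that holds most of it passed at an adjusted p of 0.0411.

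Gata3, the factor of helper T cells and T cell commitment, had levels from low to high in 5 clusters. Its first start in GENCODE M21 has no cluster. A start farther into the gene has clusters before it, which lie in an intron of the longer transcripts. The cluster nearest a start, at 209 bp (chr2:9878809-9878965), stood at 38.9% ± 15.4 in Ikaros, from 9.10% over 34.6% to 75.7%, and 42.4% ± 10.7 in Control, from 15.8% over 46.0% to 54.4%. This cluster varied most of all 33 between samples, and the groups overlapped. A neighbour in the same intron (chr2:9879541-9879777) was the lowest, at 9.32% ± 3.81 and 9.01% ± 2.06. The highest, over a coding exon (chr2:9877512-9877616), stood at 97.8% ± 1.13 and 97.7% ± 1.26. A low stretch therefore lay between methylated ones, and neither of the clusters in it passed a test.

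Bcl11b, the factor that fixes T cell identity, was methylated in 6 clusters. The cluster nearest a start (chr12:108002676-108002774), 640 bp away in an intron, was the highest at 98.0% ± 0.941 in Ikaros, from 95.3% over 98.1% to 99.3%, and 98.3% ± 0.657 in Control, from 96.8% over 98.4% to 99.2%. The lowest lay over the last coding exon and UTR (chr12:107915334-107915895), at 89.5% ± 5.08 in Ikaros and 84.8% ± 7.78 in Control. That difference of 4.75 points was the second largest of the members and did not pass the test (adjusted p = 0.372, limma), as Control samples ran from 69.7% to 92.6% and Ikaros samples from 71.3% to 95.3%. Within replicate numbers 1, 2 and 3 it was 3.36, -0.457 and 11.3 points. The start itself was not covered by a cluster, and the RefSeq promoter holds 9 CG.

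Runx3, the factor of cytotoxic T cells that has a distal and a proximal start, was unmethylated around the proximal start. The cluster over that start (chr4:135152218-135153101) was the lowest of all members at 0.363% ± 0.225 in Ikaros, from 0% over 0.364% to 0.772%, and 0.516% ± 0.152 in Control, from 0.263% over 0.509% to 0.810%, and all 151 positions had means under 10%. An intron cluster 1755 bp from a start (chr4:135150421-135150741) stood at 4.46% ± 2.20 and 4.51% ± 1.65. The last coding exon (chr4:135175424-135175792) was methylated at 96.7% ± 2.44 and 96.8% ± 2.26. The distal start, the first of the gene, had no cluster.

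Tcf7, which encodes a factor of early T cell progenitors, lay between the classes in 1 cluster over its start (chr11:52282572-52283697, 157 positions). The level was not even: from the start of GENCODE M21 into the gene it stood between 77.5% and 99.7% in windows of 100 bp in either series, and it fell upstream to 4.80% ± 5.65 in Ikaros and 2.65% ± 2.64 in Control between 401 and 500 bp before that start. Between 501 and 600 bp it was at 78.4% ± 6.65 and 71.3% ± 6.90, and between 601 and 700 bp at 76.7% ± 17.6 and 77.6% ± 7.42. Predicted RefSeq transcripts of Tcf7 begin 369 bp farther upstream than the GENCODE start, inside this valley.

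**Figure D3:**
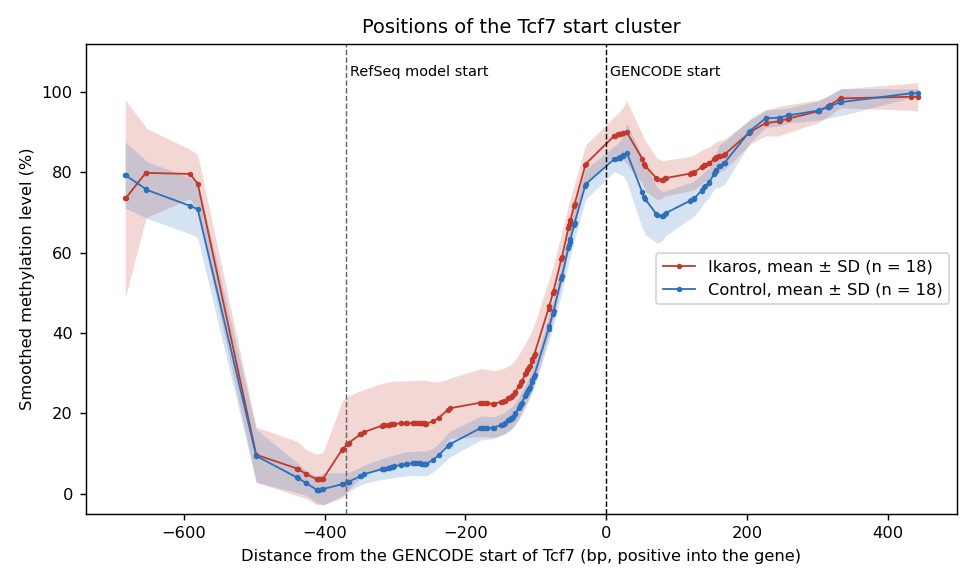
Smoothed methylation level (y axis, %) of each of the 157 positions of the Tcf7 cluster by distance from the GENCODE start (x axis, bp, positive into the gene). Points and lines are means over 18 samples, red for Ikaros and blue for Control, bands are SD, and dashed lines mark the GENCODE start and the RefSeq start 369 bp upstream. Ikaros lies above Control from the low stretch upstream to about 200 bp into the gene.

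The series were compared first over all time points, which asks whether the cells with inducible Ikaros differ from the Control cells at any of these genes. Of the 32 member clusters, 3 passed (2 higher and 1 lower in Ikaros), against 810 of 16734 clusters in all (4.84%, 621 higher and 189 lower). At an unadjusted p under 0.05 there were 4 of 32 members (12.5%) and 14.8% of all clusters. With 3 calls in 32, the members' share is not read as different from that of all clusters. The mean level was higher in Ikaros in 17 of the 32 members and in 55.3% of all clusters.

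Tcf7 differed most. The 18 Ikaros samples had a lowest level of 45.6%, a median of 48.9% and a highest of 64.5%. The 18 Control samples had 40.2%, 44.1% and 45.8%. All but 1 of the 18 Ikaros samples lay above the highest Control sample: Ikaros 2 h replicate 3, at 45.6%, was just under Control 2 h replicate 3, at 45.8%. The means were 49.8% ± 4.16 and 44.0% ± 1.32, and Ikaros was higher in 17 of 18 pairs. The difference was 0.67 ± 0.10 (SE) on the M-value scale (adjusted p = 1.87e-05, limma), and within replicate numbers 1, 2 and 3 it was 7.80, 5.78 and 3.99 percentage points. With the share of missing and of extreme values in the model it still passed, at an adjusted p of 0.00109. The difference was largest in the valley: between 301 and 400 bp before the start Ikaros stood at 15.2% ± 10.5 and Control at 5.00% ± 2.19, and between 201 and 300 bp at 18.0% ± 10.1 and 8.09% ± 2.86.

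Gata3 differed at an intron cluster (chr2:9882393-9883711), which also covers a start of 4930412O13Rik. Ikaros samples ran from 88.5% over 91.1% to 95.1% and Control samples from 78.6% over 88.2% to 90.7%, so that 10 of 18 Ikaros samples were above every Control sample. The means were 91.0% ± 1.61 and 87.5% ± 3.06, with Ikaros higher in 15 of 18 pairs. The difference was 0.57 ± 0.12 (SE) on the M-value scale (adjusted p = 0.00187, limma). The lowest Control sample was Control 0 h replicate 1, and without that library the call held. By windows of 200 bp the difference was largest at the high-coordinate end, where Ikaros stood at 85.5% ± 7.89 and Control at 73.6% ± 4.23. The call was lost with the missing and extreme shares in the model, where the difference was 0.52 ± 0.17 (adjusted p = 0.120), and without the replicates numbered 1, where it was 0.39 ± 0.12 (adjusted p = 0.113). The part of uneven coverage in the difference was not tested otherwise.

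Runx3 differed at a cluster just past its proximal start (chr4:135153243-135153659), over a start of another of its transcripts. The Ikaros samples ran from 0% over 0.369% to 1.21% and Control samples from 0.0833% over 0.908% to 2.52%, with means of 0.433% ± 0.328 and 1.04% ± 0.591. Ikaros was higher in 2 of 18 pairs, and the difference was -0.27 ± 0.08 (SE) on the M-value scale (adjusted p = 0.0384, limma). Both groups lie near the fraction of 0.01 below which M-values are constant. With clusters cut at gaps of 50 bp, no Runx3 cluster passed. The call was lost with the missing and extreme shares in the model, where the difference was -0.19 ± 0.11 (adjusted p = 0.585), and without each replicate number in turn, where it was -0.28, -0.33 and -0.21 (adjusted p = 0.229, 0.124 and 0.157). It was also lost without any 1 of 16 libraries, with differences from -0.27 to -0.25 and adjusted p from 0.0511 to 0.0660: Control 0 h replicate 3, Control 6 h replicates 1 and 3, Control 12 h replicates 2 and 3, Control 24 h replicates 1 and 3, Ikaros 0 h replicate 1, Ikaros 2 h replicates 1, 2 and 3, Ikaros 6 h replicates 2 and 3, Ikaros 12 h replicates 1 and 3, and Ikaros 24 h replicate 2.

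**Figure D4:**
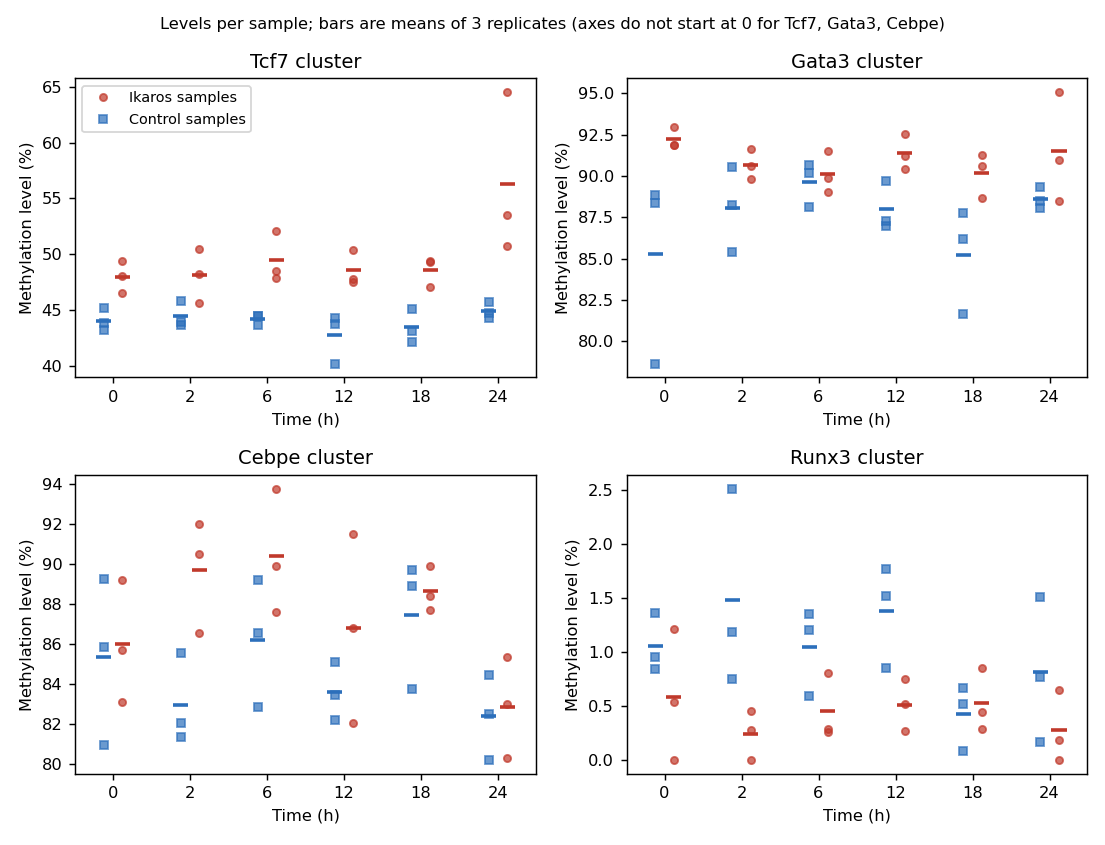
Methylation level (y axis, %, not from 0 for Tcf7, Gata3 and Cebpe) by time (x axis, h) of the member clusters at an unadjusted p under 0.05 between the series. Each point is 1 sample, red circles Ikaros and blue squares Control, and bars are means of 3 replicates. The Tcf7 groups are apart at every time but 2 h, while over all samples the Gata3, Cebpe and Runx3 groups overlap.

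At 0 h, before induction by the methods of the study, none of the 32 member clusters passed limma, against 36 of 16734 (0.215%), and 3 members (9.38%) had an unadjusted p under 0.05, against 9.55% of all clusters. These were Gata3 (0.91 ± 0.27 SE on the M-value scale, adjusted p = 0.208), Tcf7 (0.50 ± 0.23, adjusted p = 0.467) and the Klf1 coding exon (-0.75 ± 0.35, adjusted p = 0.499). For Tcf7 the Ikaros values at 0 h were 46.5%, 49.4% and 48.1% and the Control values 45.1%, 43.8% and 43.2%, so the 3 Ikaros samples lay above the 3 Control samples already then. For Gata3 they were 93.0%, 91.8% and 91.8% against 78.6%, 88.8% and 88.4%.

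At 24 h 1 of 32 member clusters passed, Tcf7, against 62 of 16734 (0.371%), and 5 members (15.6%) had an unadjusted p under 0.05, against 13.6% of all clusters. Ikaros samples stood at 64.5%, 53.5% and 50.7% and Control samples at 44.7%, 44.3% and 45.7%, and the groups did not overlap. The difference was 1.19 ± 0.23 (SE) on the M-value scale (adjusted p = 0.0229, limma). Ikaros 24 h replicate 1 was the highest of all 36 samples, and without it the difference was 0.79 (adjusted p = 0.0405). The share of values at exactly 0% or 100% was 41.4%, 59.1% and 41.3% in these Ikaros samples and 28.7%, 30.5% and 29.1% in these Control samples. Without Ikaros 24 h replicate 2, the sample with the highest share, the difference was 1.44 (adjusted p = 0.00251). The call was lost with the missing and extreme shares in the model, where the difference was 1.49 ± 0.29 (adjusted p = 0.0799), without replicates 1, 2 or 3, where it was 0.81, 1.36 and 1.39 (adjusted p = 0.207, 0.0501 and 0.0953), without Control 24 h replicate 1, where it was 1.21 (adjusted p = 0.0849), and without Control 24 h replicate 3, where it was 1.24 (adjusted p = 0.0677). The test of whether the course differed between the series did not call Tcf7 (adjusted p = 0.965, limma).

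No member changed over time by the tests. In Ikaros 0 of 32 member clusters and 0 of 16734 clusters (0%) passed limma, with 2 members and 873 clusters at an unadjusted p under 0.05. In Control 0 of 32 members and 2 of 16734 clusters (0.012%) passed, with 1 member and 808 clusters at an unadjusted p under 0.05. The series by time terms passed in 0 of 32 members and 0 of 16734 clusters (0%), with 1 member and 857 clusters at an unadjusted p under 0.05. The lowest adjusted p among the members was 0.905, 0.991 and 0.965 in these 3 tests. The members at an unadjusted p under 0.05 were a Gata2 coding exon cluster and the highest Gata3 cluster in Ikaros, Cebpe in Control and the second Cebpb cluster for the course. Between the lowest and the highest of the 6 time means the members spanned a median of 2.08 points in Ikaros and 2.03 in Control, and 24 and 26 of 33 clusters spanned under 5 points.

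The widest span in each series belonged to a cluster with a wide spread between replicates. The Gata3 cluster near a start ran from a mean of 25.7% at 0 h to 53.7% at 24 h in Ikaros, but the replicates at 24 h were 26.3%, 75.7% and 59.0%. In Control the same cluster was at 52.5%, 54.4% and 29.6% at 0 h and 45.7%, 15.8% and 46.5% at 24 h. The Bcl11b last exon cluster spanned 11.3 points in Control, from 77.2% ± 11.4 at 0 h to 88.5% ± 2.31 at 6 h (SD, n = 3). Tcf7 had a narrower median SD between replicates, 1.94 points in Ikaros. It spanned 8.24 points there, from 48.0% at 0 h to 56.2% at 24 h, and 2.16 points in Control.

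Beside the 10 genes, 34 other blood-lineage factors and 19 B-lineage factors were described at the cluster nearest a start of each gene and within 1000 bp of it. All 10 members had such a cluster: 5 were over 90% (Bcl11b, Cebpa, Cebpb, Gata2 and Tal1), 3 in between (Cebpe, Gata3 and Tcf7) and 2 under 10% (Klf1 and Runx3). Of all 13134 clusters within 1000 bp of a start of a coding gene, 32.4% were over 90% and 58.4% under 10%. Of the 28 other blood-lineage factors with a cluster near a start, 9 were over 90%, 5 between and 14 under 10%. Their share over 90% (32.1%) was near that of all such clusters. Values of single genes in these 28 follow. Among the highest were Mecom at 98.0% and Maf at 97.9%, and the lowest were Lef1 at 0.138%, Foxp3 at 0.199% and Cebpg at 0.237%. Of the 14 B-lineage factors with one, 12 were under 10%, and the highest were Ikzf1 at 98.2%, Ikzf3 at 30.1% and Pou2f2 at 1.21%. The lowest were Ebf1 at 0.205%, Tcf12 at 0.321% and Tcf4 at 0.362%.

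**Figure D5:**
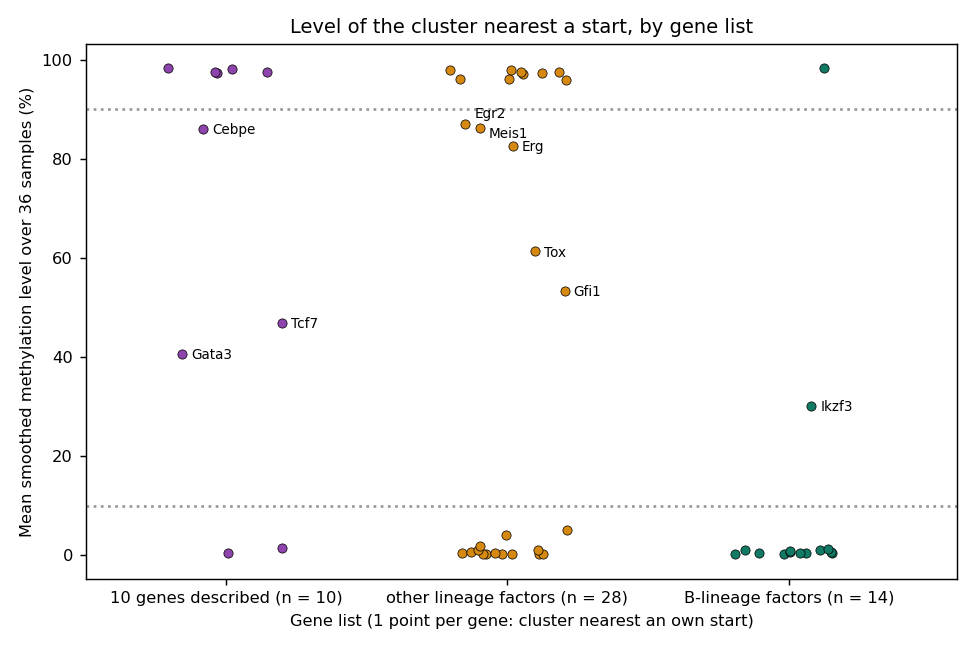
Mean smoothed level over 36 samples (y axis, %) of the cluster nearest an own start, 1 point a gene, for the 10 genes described, 28 other blood-lineage factors and 14 B-lineage factors (x axis). Dotted lines mark 10% and 90%, and genes in between are named. The B-lineage factors lie under 10% save Ikzf3 and Ikzf1, and the other 2 lists fill both ends.

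The start cluster passed the comparison of the series over all time points (4.84% of all clusters) in 3 of the 28 other factors and 1 of the 14 B-lineage factors. Of all clusters of these lists, 7 were higher and 1 lower in Ikaros among 60 of the other factors, and 2 were higher and 1 lower among 46 of the B-lineage factors. Egr2 stood at 89.5% ± 2.68 in Ikaros and 84.6% ± 1.85 in Control (adjusted p = 8.38e-05, limma), Erg at 87.3% ± 3.92 and 77.9% ± 5.69 (adjusted p = 0.000157) and Cebpd at 0.730% ± 0.254 and 1.26% ± 0.530 (adjusted p = 0.0437). Ikzf3, a relative of Ikaros in B cells, stood at 34.8% ± 6.26 and 25.5% ± 2.96 (adjusted p = 7.89e-06). The largest difference among the called clusters of these lists, named after its value was seen, lay 157 bp from a start of Klf4, a factor of monocytes, outside the cluster nearest its start: 96.6% ± 2.29 in Ikaros and 77.3% ± 8.18 in Control (adjusted p = 5.46e-09). The cluster nearest a start of Klf4 stood at 97.1% ± 1.21 and 97.4% ± 0.873 and did not pass. The other called clusters of these lists belonged to Egr2 (1 of them over another of its starts), Tbx21, Lyl1, Spib and Bach2. With the missing and extreme shares in the model, 5 of these 11 called clusters passed: Egr2 (the cluster with values above), Erg, Ikzf3, Klf4 and Bach2, whereas Cebpd did not (-0.34 ± 0.12 SE, adjusted p = 0.154, limma).

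Clusters elsewhere with the pattern nearest to the called members over the 36 samples were named by Pearson's r of M-values, as a description, since all samples share the 2 series and their coverage. The nearest to Tcf7 lay at starts of Hey2 (r = 0.84), Naa60 (r = 0.79) and Camk4 (r = 0.78). The nearest to the Gata3 cluster were near Hadha (r = 0.69), Arhgap35 (r = 0.67) and Tbc1d16 (r = 0.67), and the nearest to the Runx3 cluster were at Eif4ebp1 (r = 0.78), Mesd (r = 0.70) and Vps36 (r = 0.66). Each of the 3 clusters nearest to Tcf7 was itself higher in Ikaros, at 85.8% against 78.6%, 96.9% against 89.3% and 63.8% against 46.3%. That direction follows from the way they were picked, since Tcf7 itself differed by series. The 3 clusters nearest to the Runx3 cluster did not pass between the series (adjusted p from 0.568 to 0.737, limma).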

How the data were processed

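RRBS was measured in 36 samples of B3, 3 for each of 6 times in 2 series. According to the methods of the study the authors trimmed reads, mapped them with Bismark (version 0.10.1 in the submitters' processing notes) to GRCm38, called methylation, limited high coverage and smoothed levels within CpG clusters with BiSeq. The authors deposited smoothed levels as fractions from 0 to 1, shown here as percentages, and M-values on a log2 scale, from levels limited to 0.01 and 0.99. Smoothing ties neighbouring positions together. No coverage is given, so the depth behind each level, and the precision it gives, is unknown.

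The members and the gene lists were chosen with earlier results of these data known. Listed positions at most 100 bp apart formed clusters of at least 20 positions, and 1116322 of 1116417 positions fell on a CG of GRCm38. Cluster means over positions complete in all 36 samples were computed with Python 3.11.15. limma 3.58.1 (R 4.3.3) was run on mean M-values, two-sided, with Benjamini-Hochberg adjustment over 16734 clusters and a threshold of 0.05, and the steps were tested on simulated data. The series coefficient was fitted with time as a factor, contrasts at 0 h and 24 h in a fit of all conditions, changes over time as F tests within a series, and the course as series by time terms.

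Named for each gene were the cluster nearest a start, its highest and lowest clusters, clusters past a test, the 3 largest differences between the series, and for called clusters the 3 most alike on other chromosomes. From the other lists those whose cluster nearest a start passed a test, and the 3 highest and lowest such clusters, were named. The level of 1 gene under this rule is not reported here. The labels give replicate numbers 1 to 3 that mark batches shared across conditions (numbers 1 and 3 are batches 1 and 4, and number 2 is batch 2 at 0 h and batch 3 later), so samples are paired by label, and p-values measure only the spread between these samples. In the check, the deviations of 198 same-number pairs had a mean correlation of -0.000326, and 0 pairs were over 0.1. Alternatives are given in the closing section.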

Additional observations from a re-analysis of the deposited data

How the results depend on the processing

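The levels of the members moved little: the share of clusters over 90% stayed between 57.6% and 72.7% and that under 10% between 18.2% and 25.0% over other sets of positions, medians, gaps of 50 bp, flanks of 2 kb and 10 kb, classes at 20% and 80%, and each replicate or library left out. Tcf7 passed the comparison of the series under all alternatives run, with adjusted p from 4.04e-07 to 0.00743. With the missing and extreme shares in the model, 1 member passed between the series (Tcf7) and 335 clusters, 0 members and 4 clusters at 24 h, 7 clusters at 0 h and 0 for change over time in Control. With levels in place of M-values 71 clusters passed at 0 h, 40 at 24 h and 0 for time in Control. At gaps of 50 bp 4 clusters passed for time in Ikaros, 9 in Control and 2 for the course, none a member, and the 3 members called between the series were of Tcf7, Gata3 and Cebpe. With batch as a factor 6 clusters passed for time in Control, and with all positions 1.

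Replicates and single libraries left out gave 1 to 3 members and 368 to 863 clusters between the series (1 member and 399 clusters without replicate 1, 368 clusters without replicate 3). At 24 h they gave 0 to 1 members and 4 to 384 clusters, lowest without Control 24 h replicate 3 and highest without Ikaros 24 h replicate 3. They gave 0 to 70 clusters at 0 h, 0 to 5 for time in Ikaros, 0 to 12 in Control and 0 to 14 for the course, with 0 members throughout. The replicate block gave 820 clusters between the series and changed no call of a member. The cause of these shifts was not tested.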
